A study of Mus musculus with 15 samples.

Results

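Expression of 754 immune genes was compared between mouse bone marrow-derived macrophages (BMDMs) that were conditioned with IL-4 and given nanoparticles carrying IRF5 mRNA (IRF5-NP) and BMDMs polarised with monophosphoryl lipid A as inflammatory, M1-like standards (MPLA). The members were the 3 libraries titled as IRF5-NP, numbered 1, 2 and 4, and the 4 titled as MPLA, numbered 1 to 4, or 7 of the 15 libraries of the series. All cells were grown from femoral marrow for 7 days with 20 ng/mL of the macrophage growth factor M-CSF. MPLA cells then received 20 ng/mL of MPLA for 4 days and no nanoparticles, whereas IRF5-NP cells received 20 ng/mL of IL-4 for 4 days and, by the labels, 1 µg of nanoparticles for 1 h. The study's methods state another nanoparticle amount, given as mRNA. They add that mRNAs for the kinase IKKβ and for a green fluorescent reporter were packed with it, and that strongly transfected cells were sorted and kept in IL-4 before RNA isolation. Cytokine, nanoparticle and sorting therefore differ together between the groups and cannot be told apart. The labels give neither the strain nor the age of the mice, nor whether replicates were separate cultures. A figure legend of the study calls the samples of this experiment biologically independent, with more per group than the libraries here, so which libraries are meant is unclear, and p-values measure only the spread between these libraries.

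MPLA is a detoxified part of bacterial lipopolysaccharide that binds Toll-like receptor 4 with its co-receptor CD14. Through NF-kB and interferon regulatory factors, this receptor drives inflammatory cytokines, chemokines and interferon-response genes, the pattern called M1-like. IL-4 acts through the factor STAT6 and drives the M2-like pattern, with chitinase-like proteins, the mannose receptor and the lipid-sensing nuclear receptor PPARγ. IRF5 is an interferon regulatory factor that IKKβ activates by phosphorylation and that favours inflammatory gene expression. The comparison asked how far IL-4-conditioned cells given IRF5 and IKKβ stood from cells that had been activated through Toll-like receptor 4 itself.

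Each transcript was counted by a colour-coded probe, without amplification, on NanoString's nCounter panel for myeloid innate immunity. Total gene counts were 1618914 to 1784833 in MPLA. In IRF5-NP they were 1510011 and 1417820 in libraries 1 and 2 but 266169 in library 4, whose positive controls (geometric mean 2412 counts) were above those of libraries 1 and 2 (1371 and 1181). The background limit of a library lay 2 SD over the mean of its 8 negative controls, which came to 25.3 to 33.9 counts per library. This left 560 to 581 genes above background in MPLA and 461, 475 and 440 in IRF5-NP. Levels below are log2 CPM, that is log2 counts relative to library size after TMM scaling over the 7 libraries, and are compared only within a gene. On this scale the negative controls averaged 3.13 to 3.41 in MPLA, 4.08 and 3.93 in IRF5-NP 1 and 2, and 5.69 in IRF5-NP 4, so an unexpressed gene read higher in IRF5-NP than in MPLA.

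IRF5-NP 4 also stood apart from the other IRF5-NP libraries in what it held. IRF5-NP 1 and 2 were nearly identical (chi-square per degree of freedom 1.63 over genes with at least 40 summed counts, Pearson's r 0.993 across genes), whereas each differed widely from IRF5-NP 4 (860 and 843, r 0.729 and 0.726). Among MPLA libraries, 1 and 4 (2.56) and 2 and 3 (1.98) formed close pairs, against 41.4 to 51.3 for the other pairings. Macrophage markers were present in all 7 libraries, though stromal markers were abundant beside them in MPLA and IRF5-NP 4. Csf1r, the M-CSF receptor, had 832 counts in IRF5-NP 4 and 5985 to 8289 elsewhere, and 14 to 16 of 17 pan-macrophage markers were above background in each library. Of 12 stromal (fibroblast and matrix) markers, all were above background in the MPLA libraries and in IRF5-NP 4 and 1 in each of IRF5-NP 1 and 2. They took 10.6 to 12.1% of gene counts in MPLA, 5.99% in IRF5-NP 4, 0.0128% in IRF5-NP 1 and 0.0130% in IRF5-NP 2, and the collagen gene Col1a2, for example, had 43580 to 51759 counts in MPLA, 4529 in IRF5-NP 4 and 12 and 9 in IRF5-NP 1 and 2. Pan-macrophage markers took 5.79 to 6.10% of counts in MPLA and 15.8%, 15.9% and 4.94% in IRF5-NP 1, 2 and 4, so the stromal markers took more counts than the macrophage markers in every MPLA library and in IRF5-NP 4. In such bulk samples, fewer cells of a type and less RNA per cell cannot be told apart, and the part of stromal content in the differences below was not tested.

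**Figure D1:**
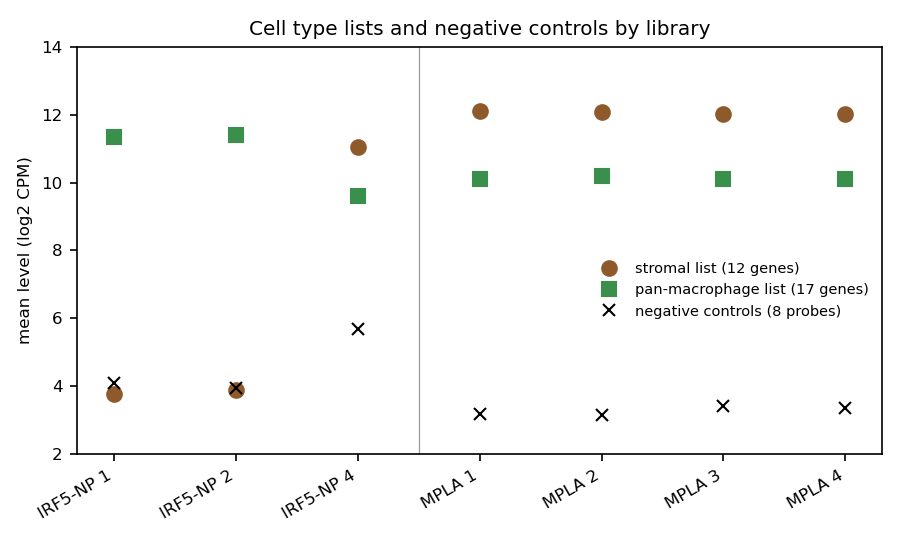
Mean level (log2 CPM) of 12 stromal markers, 17 pan-macrophage markers and 8 negative controls in each of the 7 libraries. The stromal markers sit near the negative controls in IRF5-NP 1 and 2 and far above them in IRF5-NP 4 (11.1) and MPLA (12.0 to 12.1), and the negative controls are highest in IRF5-NP 4.

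Between IRF5-NP and MPLA, 184 of 754 genes (24.4%) passed edgeR's quasi-likelihood test at a Benjamini-Hochberg adjusted p under 0.05 (n = 3 and 4, used throughout). Of these, 97 genes (12.9%) were lower in IRF5-NP, and each of the 97 was above background in all 4 MPLA libraries and lower in every IRF5-NP library than in any MPLA library. Of the 97, 60 were above background in all 3 IRF5-NP libraries, 9 in 2, 10 in 1 and 18 in none, and where a library was below background the fitted difference rests partly on an unmeasured value. This holds for Marco, Col11a1, Fpr2, Acod1, Camp, Cxcl2 and Mx1, each above background in 1 of the 3, and for Cxcl10, Cd40, Icosl, Tlr9 and S100a8, each in 2. The log2 differences of the 97 ran from -4.50 to -0.50 with a median of -1.26, against a median of 0.07 over all genes. The 87 genes called higher (11.5%) were of mixed quality: 21 (2.79%) were above background in all 3 IRF5-NP libraries, 24 were above it in IRF5-NP 1 and 2 but not 4, and 36 were below it in all 7 libraries, with no count over 33. A further 6 fell between these classes. Those 36 carry no measurable level, and their median log2 difference (1.53) was close to the shift of the negative controls themselves (1.30). Groups did not overlap for 44.2% of all genes, 24.9% with IRF5-NP lower and 19.2% with it higher.

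**Figure D2:**
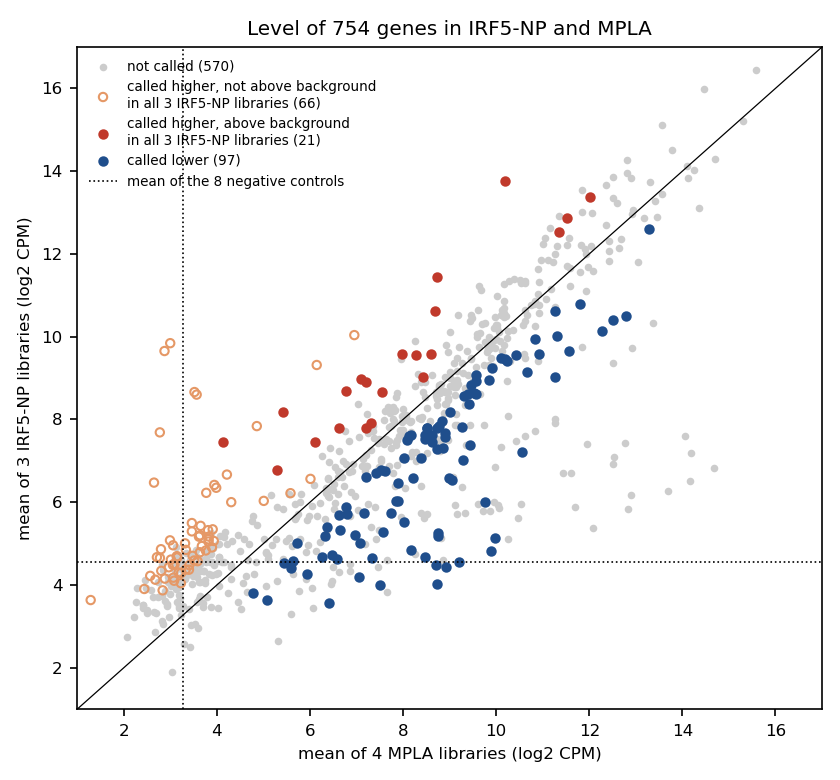
Each point is a gene, at its mean level in MPLA (horizontal) and in IRF5-NP (vertical), both in log2 CPM; dotted lines mark the mean of the negative controls and the diagonal marks equal levels. The 97 genes called lower lie below the diagonal across the range of levels, while 66 of the 87 called higher (open circles) were not above background in all IRF5-NP libraries and many of these crowd at the negative controls.

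IRF5-NP 4 lay closer to MPLA than IRF5-NP 1 and 2 did. Over the 97 genes called lower, the median distance from the MPLA mean was -1.32 in IRF5-NP 1 and 2 together and -1.07 in IRF5-NP 4, and IRF5-NP 4 was the nearer for 74 genes. Its higher background limit (6.49 log2 CPM, against 4.97 and 4.84) sets a floor for low genes, and 18 of the 97 were below background in all IRF5-NP libraries. Over the 60 genes above background in all 3 the medians were -1.08 and -0.89, with IRF5-NP 4 nearer for 43, although being above its higher limit favours genes that read high in it. Over the 21 measured increases the corresponding medians were 1.79 and 0.66, and IRF5-NP 4 was the nearer for 16. Leaving it out raised the calls to 566, which included all 97 and all 87 genes. Leaving out any other single library lowered the calls to between 55 (IRF5-NP 2) and 90 (MPLA 3), with 73 for IRF5-NP 1 and 74, 80 and 70 for MPLA 1, 2 and 4. In all 7 such fits 24 of the 97 decreases and 5 of the 21 measured increases were called, whereas 42 and 14 were called only in the fit without IRF5-NP 4. A fit that leaves out a library of a close pair keeps its near-identical partner, so a call in all 7 fits can still rest on a single pair. Counting each close pair as 1 sample left no call (79 genes at an unadjusted p under 0.05 by edgeR).

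Of 32 cytokine genes 2 were called lower (6.25%, against 12.9% of all genes) and 4 higher (12.5%, against 11.5%), none of the 4 above background in all IRF5-NP libraries, with a list median of 0.26. Without IRF5-NP 4 the counts were 11 lower and 8 higher, in a fit that called 305 of all 754 genes lower and 261 higher. The 2 called lower with all libraries, Tnf and Il1b, belong to the Toll-like receptor response. Tnf, the central macrophage cytokine, was at 7.15, 6.85 and 8.11 log2 CPM in IRF5-NP 1, 2 and 4 and at 9.66, 9.27, 9.15 and 9.69 in MPLA 1 to 4. The lowest MPLA library was thus about a log2 unit above the highest IRF5-NP library, which was library 4. Tnf fell by 2.00 ± 0.36 (log2 difference ± SE, as below; adjusted p = 0.0129), a call lost without IRF5-NP 1. Il1b, which encodes the inflammasome-processed cytokine IL-1β, had 12, 15 and 11 counts in IRF5-NP, all below background, and 546, 121, 115 and 418 counts in MPLA. It was at least 3.06-fold lower in IRF5-NP (adjusted p = 0.0282), although its MPLA libraries split into a pair of high and a pair of low ones, and the call was lost without MPLA 1, MPLA 4, IRF5-NP 1 or IRF5-NP 2. Il6 read 3.23, 3.46 and 7.13 in IRF5-NP and 7.26 to 8.09 in MPLA, a difference of -2.12 ± 1.04 that did not pass (adjusted p = 0.157). It passed without IRF5-NP 4, but IRF5-NP 1 and 2 were both below background, so neither fit gives a measured difference. Nlrp3, the inflammasome sensor that leads to IL-1β release, fell by 1.17 ± 0.15 (adjusted p = 0.00586).

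Of 33 chemokine genes on the panel 5 were called lower (15.2%) and 6 higher (18.2%), shares near the 12.9% and 11.5% of all genes, with a list median of -0.02. Of the 6 called higher 1 (Pf4) was above background in all IRF5-NP libraries. Without IRF5-NP 4 the counts were 15 lower and 11 higher, in a fit that called 305 of all 754 genes lower and 261 higher. Ccl3, which recruits monocytes and lymphocytes, was at 8.72, 8.65 and 9.74 in IRF5-NP and at 11.37, 11.16, 11.07 and 11.42 in MPLA. Every IRF5-NP library was more than a log2 unit below every MPLA library, and Ccl3 fell by 2.14 ± 0.33 (adjusted p = 0.00979), also called in each fit that left out a library. Its neighbour in function Ccl4 fell by 2.12 ± 0.40 (adjusted p = 0.0148, lost without IRF5-NP 2). Cxcl2, which recruits neutrophils, was at 4.38, 4.29 and 7.11 against 9.10, 8.45, 8.39 and 9.08, and Cxcl10, an interferon-induced chemokine for T cells, at 4.81, 4.87 and 6.89 against 8.15, 7.80, 7.85 and 8.27. In both genes IRF5-NP 4 read highest of the IRF5-NP libraries and the groups did not overlap. Cxcl2 fell by 3.01 ± 0.82 (adjusted p = 0.0399) and Cxcl10 by 2.26 ± 0.58 (adjusted p = 0.0342), each called in the leave-one-out fit without IRF5-NP 4 and in no other. That fit gives no measured fold for either gene. Cxcl2 was below background in both remaining IRF5-NP libraries, and Cxcl10 was below it in IRF5-NP 1 and barely above it in IRF5-NP 2. The fitted sizes with all libraries rest partly on the same values. Not every chemokine followed: the monocyte-recruiting Ccl2 and Ccl7 had 29087 to 52803 and 11580 to 20650 counts in MPLA and differed by -0.82 ± 0.67 and -0.99 ± 0.55 (adjusted p = 0.357 and 0.205). IRF5-NP 1 and 2 read 12.28 and 12.37 for Ccl2, well below the MPLA range of 13.95 to 14.78, while IRF5-NP 4 read 14.70, and without IRF5-NP 4 both genes passed (-2.08 and -1.90). The receptor of the membrane chemokine fractalkine, Cx3cr1, was at 6.31, 6.39 and 7.08 in IRF5-NP and 8.84 to 9.13 in MPLA and fell by 2.39 ± 0.25 (adjusted p = 0.00566).

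Receptors for bacterial products were among the genes with large decreases. Marco, a scavenger receptor that takes up bacteria, had 30, 13 and 40 counts in IRF5-NP and 1614, 2051, 2146 and 1554 in MPLA. Among IRF5-NP only library 4 was above background, by a few counts, so the fitted difference of -4.43 ± 0.80 (adjusted p = 0.0129) is no measured fold. The formyl peptide receptor Fpr1, which senses bacterial peptides, had 16, 18 and 21 counts, all below background, against 860, 542, 498 and 745, and was at least 8.23-fold lower (adjusted p = 0.00979). Its relative Fpr2 had a fitted difference of -3.92 ± 1.00 (adjusted p = 0.0329, in the leave-one-out fits called without IRF5-NP 4 alone). Fpr2 was not above background in every IRF5-NP library, so this is likewise no measured fold. Cd14, the lipopolysaccharide co-receptor, was at 9.93, 9.94 and 11.31 log2 CPM in IRF5-NP and 12.22 to 12.76 in MPLA. IRF5-NP 4 thus lay between the other IRF5-NP libraries and MPLA. Cd14 fell by 1.98 ± 0.43 (adjusted p = 0.0227). Tlr2, for bacterial lipoproteins, fell by 1.52 ± 0.38 (adjusted p = 0.0310), and Tlr9, for bacterial DNA, by 1.43 ± 0.18 (adjusted p = 0.00586). The Cd14 and Tlr2 calls were lost in 5 or more leave-one-out fits, whereas Tlr9, Marco and Fpr1 were called in all 7. Trem1, an amplifier of Toll-like receptor signals, was below background in all IRF5-NP libraries and at least 1.77-fold lower (adjusted p = 0.00979). Aoah, the enzyme that detoxifies lipopolysaccharide, fell by 2.46 ± 0.33 (adjusted p = 0.00597). In all, 9 of 28 pattern recognition and scavenger receptor genes were called lower (32.1%, against 12.9% of all genes) and 6 higher (21.4%, against 11.5%), 2 of these 6 measured in every IRF5-NP library, with a list median of 0.05. Without IRF5-NP 4 the list had 12 lower and 13 higher, in a fit that called 305 of all 754 genes lower and 261 higher.

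Of 15 genes of NF-kB and Toll-like receptor signalling, 8 were called lower (53.3%, against 12.9% of all genes) and none higher, and the list median was -0.85. Nfkbiz, a nuclear inhibitor-like protein that NF-kB induces and that co-activates Il6, was at 5.13, 4.91 and 7.99 in IRF5-NP and at 9.66 to 9.86 in MPLA and fell by 3.08 ± 0.85 (adjusted p = 0.0417, in the leave-one-out fits called without IRF5-NP 4 alone, -4.79). IRF5-NP 1 and 2 read barely above their background limits of 4.97 and 4.84 for this gene, so the size of its fall is uncertain in both fits. The feedback inhibitors Tnfaip3 (A20) and Nfkbie fell by 0.93 ± 0.17 and 0.85 ± 0.17 (adjusted p = 0.0148 and 0.0180). Of the signalling adaptors, Traf1 fell by 1.88 ± 0.38, Traf2 by 1.04 ± 0.20 and Ripk2, which links NOD receptors to NF-kB, by 0.94 ± 0.19 (adjusted p = 0.0180, 0.0151 and 0.0180). The survival factor Birc3 fell by 0.71 ± 0.16 (adjusted p = 0.0244), in the leave-one-out fits called without IRF5-NP 4 alone. The Tnfaip3 call held in 4 of the 7 fits, those of Traf1 and Ripk2 in 3 and those of Nfkbie and Traf2 in 2. The number called lower in this list depended on single libraries: it was 0 without MPLA 1, 4 without MPLA 2, 6 without MPLA 3, 1 without each of MPLA 4, IRF5-NP 1 and IRF5-NP 2, and 10 without IRF5-NP 4, with 3 higher. Of all 754 genes, 305 were called lower and 261 higher without IRF5-NP 4, and 27 to 51 were called lower without another library. Dusp1, a phosphatase that ends MAP kinase signalling, fell by 2.14 ± 0.28 (adjusted p = 0.00586) and was called in all 7 fits.

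Of 23 interferon-response genes 7 were called lower (30.4%, against 12.9% of all genes), 2 higher (8.70%, against 11.5%) and 14 neither way, with a median of -0.30. The 2 called higher, Irf4 and Ifng, were below background in IRF5-NP 4 or throughout. Usp18, an interferon-induced brake on interferon signalling, was at 6.94, 6.92 and 7.34 against 7.94 to 8.09 and fell by 0.95 ± 0.16 (adjusted p = 0.0126, lost without IRF5-NP 2). Irf1, a transcription factor that interferons induce, was at 8.63, 8.72 and 8.49 against 9.22 to 9.53 and fell by 0.80 ± 0.15 (adjusted p = 0.0148, lost without MPLA 1, MPLA 2, IRF5-NP 1 or IRF5-NP 2). The antiviral GTPase Mx2 was below background in IRF5-NP and at least 2.06-fold lower (adjusted p = 0.0363), and Mx1 fell by 0.70 ± 0.19 (adjusted p = 0.0397), both with leave-one-out calls without IRF5-NP 4 alone. Mx1 was not above background in every IRF5-NP library, so its size rests partly on unmeasured values. Without IRF5-NP 4, 11 were called lower and 8 higher, in a fit that called 305 of all 754 genes lower and 261 higher. Without another single library the number called lower was 2 (MPLA 3 or MPLA 4), 1 (MPLA 1, MPLA 2 or IRF5-NP 1) or 0 (IRF5-NP 2), against 27 to 51 of all genes.

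The stretches before the start sites of 4 genes are shown as examples, picked because a motif of a factor named above can be read in them, so their motifs are no finding. Sequences are the 250 bases upstream of the RefSeq start on GRCm38.p6, 5′ to 3′ on the gene's strand, with capitals for matches to the interferon-stimulated response element core (GAAA, 2 free bases, GAAA), the kappaB consensus of NF-kB or the STAT6 spacing (TTC, 4 free bases, GAA), each searched on both strands. Cxcl10, Cxcl2 and Tlr2 were called lower, and Retnla, an IL-4-induced gene described further on, was called higher:
Cxcl10 (chr5:92348890-92349139, minus strand): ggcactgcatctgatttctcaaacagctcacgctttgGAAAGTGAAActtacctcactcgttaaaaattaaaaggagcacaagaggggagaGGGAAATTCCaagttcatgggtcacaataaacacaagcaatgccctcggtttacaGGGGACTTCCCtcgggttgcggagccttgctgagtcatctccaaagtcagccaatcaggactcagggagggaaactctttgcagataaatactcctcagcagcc
Cxcl2 (chr5:90903649-90903898, plus strand): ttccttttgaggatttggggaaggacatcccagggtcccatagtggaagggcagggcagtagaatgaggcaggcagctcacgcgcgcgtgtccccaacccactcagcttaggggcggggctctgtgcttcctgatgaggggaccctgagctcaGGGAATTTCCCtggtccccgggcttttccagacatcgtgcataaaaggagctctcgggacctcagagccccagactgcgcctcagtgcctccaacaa
Tlr2 (chr3:83841609-83841858, minus strand): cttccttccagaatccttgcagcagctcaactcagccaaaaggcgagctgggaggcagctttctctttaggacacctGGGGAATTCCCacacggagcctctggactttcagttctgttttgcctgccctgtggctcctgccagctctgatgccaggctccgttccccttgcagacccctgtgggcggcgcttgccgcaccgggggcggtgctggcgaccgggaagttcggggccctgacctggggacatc
Retnla (chr16:48842359-48842608, plus strand): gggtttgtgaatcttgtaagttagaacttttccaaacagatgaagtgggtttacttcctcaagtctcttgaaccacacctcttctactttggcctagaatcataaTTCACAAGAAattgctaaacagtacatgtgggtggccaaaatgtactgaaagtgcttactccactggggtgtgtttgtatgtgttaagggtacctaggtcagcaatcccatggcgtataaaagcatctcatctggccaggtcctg

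In these windows Cxcl10 held the interferon element and kappaB matches, of which the nearer 2 overlap, Cxcl2 and Tlr2 held overlapping kappaB matches and Retnla held the STAT6 spacing. Of the 97 genes called lower 72 had a promoter in the RefSeq tables, and 16.7% of these held a kappaB match, against 13.8% of 435 genes not called, 13.3% of 572 panel genes and 7.01% of all 27025 promoters. The share with the interferon element was 2.78% among genes called lower, 5.06% among genes not called and 3.04% over all promoters. The STAT6 spacing was found in 3 of 32 promoters (9.38%) of genes called higher and above background in at least 2 IRF5-NP libraries, against 5.06% of genes not called and 5.86% of all promoters. These counts differ by few genes and were not tested, and a match of letters is not a bound site.

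Of 7 complement genes 2 were called lower (28.6%) and 1 higher (14.3%), against 12.9% and 11.5% of all genes, with a median of 0.47. Of 17 genes of MHC class II and costimulation 3 were called lower (17.6%) and 1 higher (5.88%), with a median of 0.46. Without IRF5-NP 4 the counts were 3 lower and 4 higher for complement and 4 lower and 11 higher for MHC class II and costimulation. That fit called 305 of all 754 genes lower and 261 higher. C3, the convergence point of complement, was at 9.44, 9.50 and 10.00 in IRF5-NP and 11.40 to 11.73 in MPLA and fell by 1.92 ± 0.23 (adjusted p = 0.00566). C1qa, a subunit of the complement-initiating protein C1q, went the other way, at 9.85, 9.65 and 9.26 against 8.46 to 8.68, and rose by 1.01 ± 0.18 (adjusted p = 0.0129), a call lost without MPLA 1 or IRF5-NP 2. The partner subunits C1qb and C1qc differed by 0.47 ± 0.28 and 0.76 ± 0.25 without passing (adjusted p = 0.223 and 0.0662), and both passed without IRF5-NP 4 (0.73 and 0.99). The T cell costimulators Cd40 and Icosl fell by 0.94 ± 0.16 and 1.34 ± 0.17 (adjusted p = 0.0129 and 0.00586, the former lost without IRF5-NP 2), while Cd80 rose by 0.59 ± 0.13 (adjusted p = 0.0228, in the leave-one-out fits called without IRF5-NP 4 alone). Hif1a, the hypoxia factor that supports glycolysis in activated macrophages, was at 9.99, 9.98 and 11.54 in IRF5-NP and 12.58 to 13.02 in MPLA, with IRF5-NP 4 between the other IRF5-NP libraries and MPLA. It fell by 2.10 ± 0.46 (adjusted p = 0.0228, called in 1 of the 7 leave-one-out fits, that without IRF5-NP 4, at -2.82). Acod1, which makes the antibacterial metabolite itaconate, fell by 3.31 ± 0.67 (adjusted p = 0.0180, lost without MPLA 1, MPLA 4, IRF5-NP 1 or IRF5-NP 2). Acod1 was not above background in every IRF5-NP library, so this size is no measured fold.

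The next 4 genes were picked after their values were seen, from no fixed list and with no count over a pathway, so they describe themselves and no group. Insig1, a sterol-regulated control protein, was at 9.79, 9.66 and 9.32 in IRF5-NP and 10.78 to 11.08 in MPLA, and fell by 1.33 ± 0.19 (adjusted p = 0.00791). It was called in all 7 leave-one-out fits. Acly, Fasn and Elovl6, which act in turn to make and lengthen fatty acids, fell by 1.01 ± 0.17, 1.37 ± 0.38 and 1.89 ± 0.40 (adjusted p = 0.0124, 0.0433 and 0.0195), but the Acly call was lost without IRF5-NP 2 and the Elovl6 call when IRF5-NP 2 or any 1 of the MPLA libraries was left out. For Fasn, IRF5-NP 1 and 2 (8.68 and 8.69) lay far below IRF5-NP 4 (10.05), which approached the MPLA range of 10.57 to 10.76, and its leave-one-out call held without IRF5-NP 4 alone.

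Some of the largest decreases were in genes that are not typical of macrophages. Col11a1, a fibrillar collagen, had 11, 18 and 39 counts in IRF5-NP and 1525 to 1984 in MPLA. IRF5-NP 1 and 2 were below background, so the fitted difference of -4.50 ± 0.90 (adjusted p = 0.0179, lost without IRF5-NP 2) is no measured fold. Crabp2, a retinoic acid carrier, and the peptidase Enpep were below background in every IRF5-NP library and were at least 11.3-fold and 4.23-fold lower (adjusted p = 0.00586 and 0.00798). Enpp2, which makes the lipid mediator lysophosphatidic acid, and Fbxl7 were at least 9.82-fold and 9.68-fold lower (adjusted p = 0.0417 and 0.0269), Sema5a, a guidance molecule, at least 1.97-fold lower (adjusted p = 0.0228), and Rnd3, a cytoskeletal GTPase, fell by 2.75 ± 0.78 (adjusted p = 0.0448). The Crabp2 and Enpep calls held in all 7 leave-one-out fits. The Enpp2 and Rnd3 calls held without IRF5-NP 4 alone, and those of Fbxl7 and Sema5a were lost when any 1 of the MPLA libraries was left out, or IRF5-NP 1 (Fbxl7) or IRF5-NP 2 (Sema5a). The stromal markers moved with these genes: none of the 12 passed, with a list median of -2.81, 10 (83.3%, against 24.9% of all genes) were lower in every IRF5-NP than in any MPLA library, and all 12 were called lower without IRF5-NP 4, against 305 of all 754 genes. Among genes with neutrophil roles, S100a8 fell by 1.90 ± 0.34 (adjusted p = 0.0129, lost without IRF5-NP 2) and the antimicrobial peptide gene Camp by 3.05 ± 0.85 (adjusted p = 0.0432, in the leave-one-out fits called without IRF5-NP 4 alone). Neither gene was above background in every IRF5-NP library, so both sizes rest partly on unmeasured values. The whole neutrophil list gave 3 of 12 genes lower (25.0%, against 12.9% of all genes) and 1 higher (8.33%, against 11.5%), and its summed share of counts was 0.438 to 0.549% in MPLA and 0.263 to 0.699% in IRF5-NP. The part of other cells in these values was not tested.

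**Figure D3:**
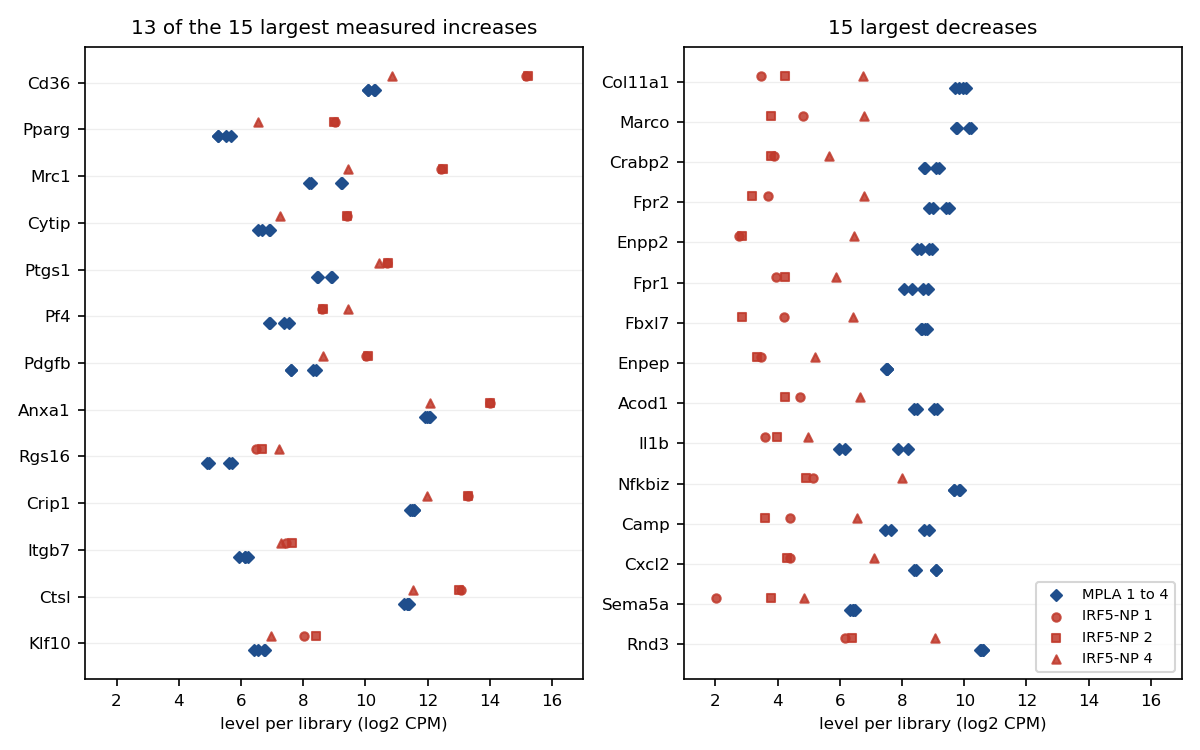
Level per library (log2 CPM) of 13 of the 15 genes with the largest measured increases (left) and the 15 with the largest decreases (right); blue diamonds are MPLA 1 to 4 and red symbols are IRF5-NP 1, 2 and 4. IRF5-NP 4 (triangles) lies between the other IRF5-NP libraries and MPLA for most genes, and for Pf4 and Rgs16 it lies beyond them.

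The 21 measured increases had log2 differences of 0.58 to 4.46 with a median of 1.49. They held 2 of 27 M2 markers (Mrc1 and Pparg) and 3 of 19 genes of lipid mediators (Cd36, Pparg and Ptgs1), a list with 5 called higher (26.3%, against 11.5% of all genes), 2 lower (10.5%, against 12.9%) and a median of 0.30. Cd36, a scavenger receptor for oxidised lipids, had 41895, 40006 and 682 counts in IRF5-NP and 1946 to 2326 in MPLA, or 15.18, 15.22 and 10.86 against 10.07 to 10.31 log2 CPM. It rose by 4.46 ± 0.92 (adjusted p = 0.0190), but nearly all of this lay in IRF5-NP 1 and 2. Mrc1, the mannose receptor CD206 that these nanoparticles are built to bind, was at 12.42, 12.48 and 9.45 against 8.18 to 9.25 and rose by 3.14 ± 0.73 (adjusted p = 0.0253). The Cd36 and Mrc1 calls held in a single leave-one-out fit, that without IRF5-NP 4 (5.01 and 3.64). Pparg, the nuclear receptor that induces Cd36, was at 9.03, 8.99 and 6.56 against 5.26 to 5.67 and rose by 3.16 ± 0.56 (adjusted p = 0.0129), with 34 counts in IRF5-NP 4, just above background.

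Increases that IRF5-NP 4 shared in full were fewer. Ptgs1, the constitutive cyclooxygenase that starts prostaglandin synthesis, was at 10.68, 10.72 and 10.45 in IRF5-NP and 8.43 to 8.94 in MPLA. The 3 IRF5-NP libraries lay close together and far above MPLA, and Ptgs1 rose by 1.92 ± 0.20 (adjusted p = 0.00566). Pf4, a platelet-type chemokine, was at 8.62, 8.62 and 9.45 against 6.91 to 7.55 and rose by 1.74 ± 0.29 (adjusted p = 0.0124). Itgb7, an integrin subunit of mucosal homing, was at 7.45, 7.63 and 7.29 against 5.93 to 6.21 and rose by 1.38 ± 0.15 (adjusted p = 0.00566). Pparg, Ptgs1, Pf4 and Itgb7 were called in every leave-one-out fit. Anxa1, an anti-inflammatory phospholipid-binding protein, the lysosomal protease gene Ctsl, and Flrt2 and Gpr65 rose by 1.59 ± 0.45, 1.34 ± 0.37, 1.48 ± 0.41 and 2.37 ± 0.65 (adjusted p = 0.0454, 0.0417, 0.0441 and 0.0417), but the sign of all 4 turned with the stromal level as a covariate, to -0.19, -0.01, -0.14 and -0.59, and their leave-one-out calls held without IRF5-NP 4 alone. Pdgfb, Cytip, Crip1 and Klf10 rose by 1.31 to 2.22 (adjusted p = 0.0232 to 0.0317), with leave-one-out calls without IRF5-NP 4 alone, and Rgs16 by 1.49 (adjusted p = 0.0180, lost without MPLA 2, MPLA 3 or IRF5-NP 2).

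Several genes, most of them on the list of M2 markers, were called higher, with high counts in IRF5-NP 1 and 2 and background counts in IRF5-NP 4. Chil3, a chitinase-like secreted protein, had 5084, 4874 and 13 counts in IRF5-NP and 10 to 14 in MPLA, and its near-identical paralog Chil4 had 4660, 4603 and 10 against 10 to 11, so counts of the pair may be shared between their probes. In both genes IRF5-NP 4 matched the MPLA counts, which were all below background. The calls (adjusted p = 0.0129 for both) held in all 7 leave-one-out fits, each of which keeps at least 1 of the near-identical IRF5-NP 1 and 2. No fold is given, since neither MPLA nor IRF5-NP 4 held a measurable level. Flt1, a receptor of vascular growth factors, had 577, 567 and 11 counts against 4 to 16, Rnase2a, an eosinophil-type ribonuclease, 1259, 1212 and 16 against 12 to 29, and Egr2, a transcription factor induced by IL-4, 568, 491 and 18 against 44 to 61. For Egr2 the MPLA libraries were above background and IRF5-NP 4 was not. Clec7a, the beta-glucan receptor Dectin-1, was at 11.85, 11.88 and 6.38 against 6.68 to 7.20, and the integrin gene Itgax, which is not on that list, at 11.49, 11.36 and 5.09 against 5.66 to 6.61. For both, IRF5-NP 4 was below its background limit, so its order against MPLA cannot be read. Both genes were called (adjusted p = 0.0310 and 0.0344), and with the stromal covariate the sign turned (-1.36 and -2.05). The Clec7a, Itgax and Egr2 calls each held in 1 of the 7 leave-one-out fits, that without IRF5-NP 4. Of 27 M2 markers 15 were called higher (55.6%, against 11.5% of all genes), 1 (Klf4) lower (3.70%, against 12.9%) and 11 neither way, with a median of 1.38, but 2 of the 15 (Mrc1 and Pparg) were above background in all IRF5-NP libraries. Over the 13 M2 markers above background in every library of a group the median was 0.43. Ccl17, an IL-4-induced chemokine, was among those not called, at 4.98, 5.17 and 4.70 in IRF5-NP and 5.31 to 5.87 in MPLA (-0.67, adjusted p = 0.0628). For this gene IRF5-NP 4 was below its background limit of 6.49 and IRF5-NP 1 read at its limit of 4.97, so the -0.67 is no measured difference.

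**Figure D4:**
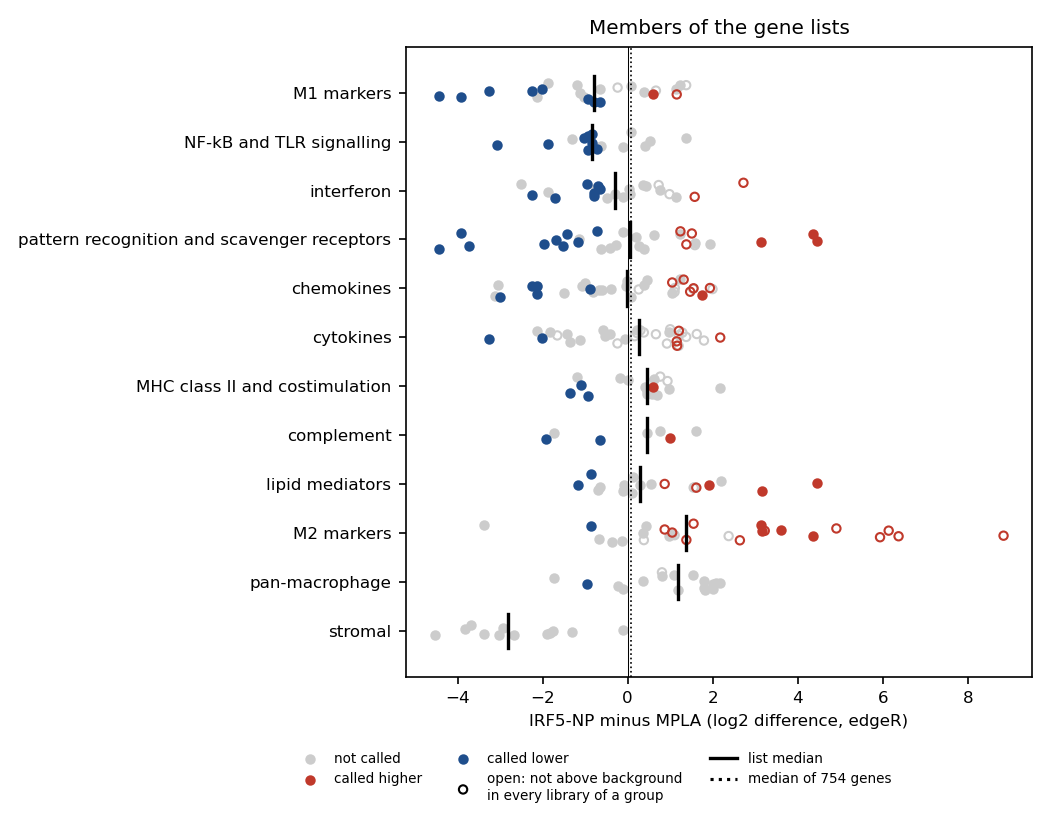
Log2 difference (IRF5-NP minus MPLA) of each panel member of 12 gene lists, red where called higher, blue where called lower and grey where not called; open circles were not above background in every library of a group. M1 markers and NF-kB genes lie mostly below 0 and M2 markers above it, where many are open circles; stromal genes are low but not called.

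By the marker lists, 8 of 23 M1 markers were called lower (34.8%, against 12.9% of all genes) and 2 higher (8.70%, against 11.5%), with a median of -0.80 against 0.07 over all genes. The 8 included Cd40, Cxcl10, Fpr2, Il1b, Irf1, Marco and Tnf, and of the 2 called higher, Cd80 was measured and Il23a was below background in every library. The number of M1 markers called lower ranged from 2 (without IRF5-NP 1 or IRF5-NP 2) through 3 (MPLA 1), 4 (MPLA 2 or MPLA 4) and 5 (MPLA 3) to 16 (IRF5-NP 4, with 4 higher). Of all 754 genes, 305 were called lower without IRF5-NP 4 and 27 to 51 without another library. The number of M2 markers called higher was 18 without IRF5-NP 4 (with 5 lower) and 8 or 9 without any other library. Over all genes the calls higher were 261 and 28 to 39 in the same fits. Markers of eosinophils, mast cells and basophils (7 of 16 higher, 43.8%) and of dendritic cells (5 of 9 higher, 55.6%), against 11.5% of all genes, gave none that was above background in all IRF5-NP libraries.

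Genes that the study singled out were examined whatever their outcome. Irf5 itself, whose nanoparticle copy is codon-optimised so that it is not known whether the panel's probe binds it, was at 11.00, 10.97 and 9.13 in IRF5-NP and at 9.56, 9.41, 9.28 and 9.52 in MPLA. IRF5-NP 1 and 2 lay above every MPLA library and IRF5-NP 4 below, and the difference of 1.14 ± 0.43 did not pass (adjusted p = 0.0877). Ccl5, a T cell-attracting M1 chemokine, had the same shape, at 13.26, 13.28 and 10.11 against 11.43 to 11.58, with a difference of 1.24 ± 0.66 (adjusted p = 0.187). Without IRF5-NP 4 both passed (1.54 and 1.74), and with the stromal covariate both turned negative (-0.57 and -1.86). Retnla, an M2 effector, had 238, 228 and 5 counts in IRF5-NP and 6 to 11 in MPLA (adjusted p = 0.0126), so it was measured in IRF5-NP 1 and 2 alone. Ccl11 was below background in all 7 libraries, and Serpinb2 was above it in IRF5-NP 4 alone (54 counts), so neither gave a measurable difference.

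**Figure D5:**
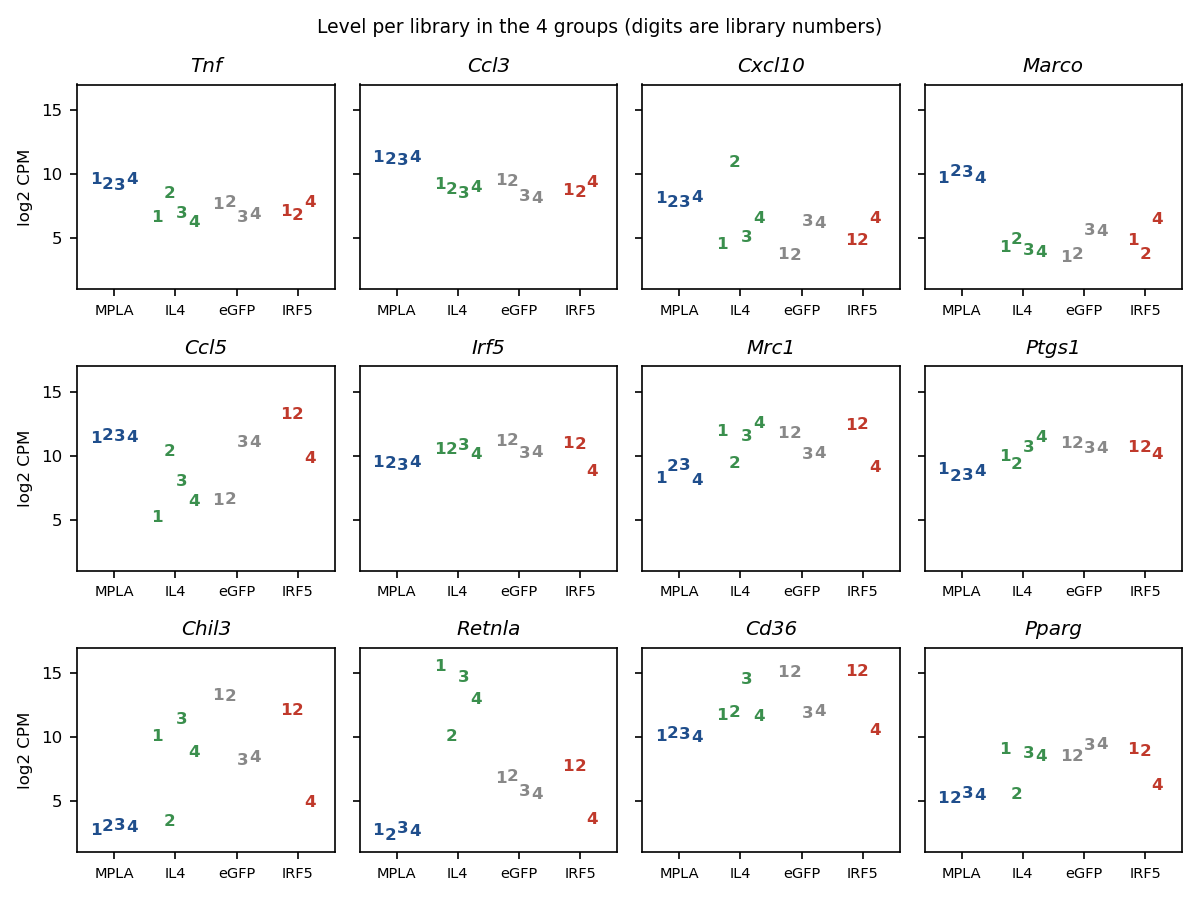
Level per library (log2 CPM after TMM scaling over all 15 libraries) of 12 genes in MPLA, IL4, eGFP-NP and IRF5-NP, with each library drawn as its number. Tnf, Ccl3 and Marco in IRF5-NP lie within or near the IL4 and eGFP-NP libraries and below MPLA, while IRF5-NP 4 departs from 1 and 2 for Ccl5, Chil3 and Cd36.

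The remaining groups of the series, IL-4 alone (IL4) and IL-4 with control nanoparticles (eGFP-NP), place these values on a common scale over 15 libraries. Tnf was at 6.77 to 7.76 in IRF5-NP, 6.23 to 8.48 in IL4, 6.59 to 7.79 in eGFP-NP and 9.10 to 9.61 in MPLA. For Ccl3 the ranges were 8.57 to 9.39, 8.50 to 9.18, 8.11 to 9.51 and 11.03 to 11.33 in the same order. For both genes MPLA alone lay apart and the other 3 groups overlapped. Ptgs1 was at 10.09 to 10.65 in IRF5-NP, 9.31 to 11.40 in IL4, 10.53 to 10.99 in eGFP-NP and 8.40 to 8.89 in MPLA, again with MPLA apart. Pf4 differed from this pattern: it was at 8.54 to 9.10 in IRF5-NP, above IL4 (5.89 to 6.91), eGFP-NP (5.86 to 8.01) and MPLA (6.83 to 7.52). These ranges are descriptions, and differences from IL4 and eGFP-NP were not tested here.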

How the data were processed

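RNA was counted on the nCounter Myeloid Innate Immunity panel, and the deposited counts are the authors' raw counts per probe, with no normalization applied. The study's own analysis scaled to housekeeping genes, took log2 values and used t-tests with Benjamini-Yekutieli adjustment. The table holds 768 probes. The 6 positive and 8 negative controls were left out, leaving 754 genes, of which 744 names matched current symbols and 9 a synonym. Lane and cartridge are not given in the sources used here.

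The 3 IRF5-NP and 4 MPLA libraries were grouped by their titles and compared with edgeR 4.0.16 in R 4.3.3 (TMM scaling, quasi-likelihood test, no filter on low counts, two-sided, Benjamini-Hochberg adjusted p under 0.05), in place of the study's t-tests because the values are counts. The SE was obtained by dividing each log2 difference by the root of its F statistic. Levels are log2 CPM with a prior count of 2. A gene was measured if it exceeded the mean plus 2 SD of its library's negative controls in every library of the higher group. A gene below this limit in a whole group has only a bound, set against the limit, and counts limit precision through counting error only. The fit was run on simulated counts with set differences to check that it returns their sign. The simulation held no close pairs and does not measure accuracy on these libraries. Alternatives used limma 3.58.1, DESeq2 1.42.0, other scalings and filters, and leaving out each library.

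Genes named were the study's Irf5, Ccl5, Ccl11, Retnla and Serpinb2, the 15 largest increases and 15 largest decreases among called, measured genes whose groups did not overlap, and up to 4 called members per direction of each list. Others, among them Nlrp3, Aoah, Dusp1, Insig1, Fasn and Acly, were chosen after their values were seen. Some genes that the rule selects are not reported here, though counts include them. The members and lists were chosen with earlier results of these data known.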

Additional observations from a re-analysis of the deposited data

Results flagged for a closer look

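Of 99 measures examined for a library far from its group, 2 stood out, and chance alone gives about 1 in 20. Itgal, an integrin subunit, was at 8.71 log2 CPM in MPLA 3 against 8.98, 8.95 and 8.98 in MPLA 1, 2 and 4. The number of genes above background was 581 in MPLA 1 against 560 to 563 in the other MPLA libraries.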

How the results depend on the processing

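The number of genes called depended strongly on the processing. Against 184 calls (87 higher, 97 lower), DESeq2 gave 388 (206 and 182), total count scaling 52 (24 and 28), scaling to pan-macrophage genes 8 (8 and 0; 140 by edgeR's unadjusted p under 0.05) and the methods' t-test 11 (2 and 9). A stromal covariate, whose slope rests on IRF5-NP 4 against 1 and 2, gave 475 (234 and 241). Positive control scaling gave 20 higher and 167 lower, a background filter 49 lower and a fit with all groups 57 lower. The alternatives chosen after seeing the data, genes above background in a whole group and subtracted background, gave 111 calls each (44 lower in the first, 43 higher in the second). Leaving out single libraries gave 55 to 566 calls, 28 to 261 higher and 27 to 305 lower. Merging near-identical libraries gave 0 (0 higher, 0 lower; 79 at an unadjusted p under 0.05 by edgeR). Replicate numbers did not pair the libraries (same-number correlations -0.131, 0.123 and 0.0711), and the replicate block gave 0 calls (0 higher, 0 lower; 212 at an unadjusted p under 0.05 by edgeR). The share of calls that were higher, 47.3%, was 59.9% with housekeeping scaling and 10.7% with positive control scaling, and the median of all genes moved from 0.07 to 0.19, -0.35 and -0.50 with housekeeping, pan-macrophage and positive control scaling. The 97 decreases were negative in every alternative that tested them. For all 97 the groups already did not overlap, so dropping or merging libraries could hardly turn a sign. With merged libraries, the replicate block or pan-macrophage scaling, 0 of the 97 were called.

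Signs turned with the stromal covariate for Irf5 (-0.57), Ccl5 (-1.86), Anxa1 (-0.19), Ctsl (-0.012), Tpsb2 (-0.58), Itgax (-2.05), Clec7a (-1.36), C1qb (-0.42), Ccl2 (0.63), Ccl7 (0.23), Gpr65 (-0.59) and Flrt2 (-0.14), with positive control scaling for Ccl11 (-0.0396) and Sgpp1 (-0.0483), and with pan-macrophage scaling for C1qb (-0.21). The cause was not tested. The shallow IRF5-NP 4 library limits what can be seen of low genes.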
